A study of Mus musculus with 16 samples.

Results

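The Notch receptors, their ligands and the Fringe glycosyltransferases were followed as 10 genes, chosen by symbol: the receptors Notch1, Notch2 and Notch3, the ligands Jag1, Jag2, Dll1 and Dll4, and the Fringe genes Lfng, Mfng and Rfng. All 10 were found among the 50316 genes listed and all 10 passed the filter on low values that left 16994 genes for testing. The samples were pools of cochleae from postnatal day 4 (P4) mice in which ribosomes of GLAST-Cre cells carried an epitope tag (RiboTag), so that RNA bound to tagged ribosomes could be immunoprecipitated (IP) and set against RNA of the whole homogenate (input). Control mice were GLAST CreERT/+ and Rpl22 HA/+, and DTR mice carried in addition 1 Lgr5 allele with a knock-in of the diphtheria toxin receptor and EGFP (Lgr5 DTR/+). Each of the 4 groups (control input, control IP, DTR input, DTR IP) held 4 libraries, with 5% of each homogenate kept as input and 95% used for the IP. According to the study's methods, both genotypes received diphtheria toxin and tamoxifen at P1, whereas the sample labels describe the controls as untreated. In every group the cells with tagged ribosomes were those reached by Cre from the GLAST (Slc1a3) promoter, which the study placed in the greater epithelial ridge (GER) and the inner phalangeal cells, so that the IP covers only part of the supporting cells. As 1 copy of Lgr5 is replaced in the DTR mice, loss of Lgr5 cells and loss of an intact Lgr5 allele cannot be told apart in the Lgr5 level itself. In such bulk samples, fewer cells of a type and less RNA per cell cannot be told apart either, which applies to each result here.

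Notch receptors are single-pass membrane proteins that are cut after binding a ligand on a neighbouring cell, and the freed intracellular domain enters the nucleus, where it joins the DNA-binding protein Rbpj and turns on targets such as the Hes and Hey genes. The Jagged and Delta-like families are the ligands. Fringe enzymes add sugars to the Notch extracellular domain and thereby change how strongly each ligand family signals. In the developing cochlea, Jag1 marks the prosensory domain and later the supporting cells, while Dll1 and Jag2 are ligands of nascent hair cells that keep their neighbours from taking the same fate through lateral inhibition. Lfng is a classical supporting cell gene of the organ of Corti and the ridge medial to it.

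The libraries held 28089836 to 41966310 counted reads each. Values are CPM, the reads of a gene scaled to the same total in every library, on which 3 reads correspond to 0.0715 to 0.107 CPM, and the lowest value of any of the 10 genes was 1.74 CPM, for Dll1 in 1 DTR input library, from 57 reads. Fold changes were taken on log2(quantile normalized CPM + 0.5) with limma over all tested genes, and a gene was called at a Benjamini-Hochberg adjusted p under 0.05. A stricter set of criteria for damage also asked for a log2 fold change of at least 1 in size and a separation above 1.5, that is, the lowest library of the higher group over the highest library of the lower group, with values below 1.08 CPM raised to that floor. Each library's 3 nearest libraries belonged to its own group in 16 of 16 cases.

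The IP and input libraries differed in their cell markers. In control IP against control input, 9 of 10 hair cell markers, 7 of 8 endothelial, 6 of 7 pericyte, 6 of 7 Schwann cell and 6 of 6 macrophage markers were lower, and supporting cell markers were divided, with 3 of 10 higher and 5 lower. Of the 7 otic mesenchyme markers, 4 were lower there, and in DTR IP against DTR input 1 was higher and 1 lower. Their summed level was 5010 to 6212 CPM in control IP and 7594 to 8175 in control input. The exception among the hair cell markers was Atoh1, at 12.6 ± 4.33 CPM in control IP and 6.77 ± 1.54 in control input (SD, n = 4). Slc1a3 was not higher in the control IP, at 236 ± 21.9 CPM against 281 ± 14.3 in input (adjusted p = 0.102, limma). In DTR it was lower in the IP, at 215 ± 18.4 CPM against 271 ± 19.8 in input (adjusted p = 0.0299, limma). In DTR IP against control IP, 7 of 10 supporting cell and 2 of 7 Schwann cell markers were lower. Higher were 4 of 7 otic mesenchyme, 3 of 6 macrophage, 2 of 8 endothelial and 1 of 7 pericyte markers. Of the 10 hair cell markers, 3 were higher and 1 lower. Summed supporting cell markers ranged from 802 to 850 CPM in DTR IP and from 1327 to 1394 in control IP. In DTR input against control input, 7 of 10 supporting cell markers were lower and 1 higher. There, 5 of 7 Schwann cell markers were lower and 3 of 6 macrophage markers higher. The hair cell, endothelial and otic mesenchyme lists had 1 call each in input. Lgr5, the gene that carries the toxin receptor, lay at 63.3 ± 3.03 CPM in the input and 36.6 ± 3.99 in the IP of controls, and at 15.9 ± 3.69 and 9.38 ± 1.40 in the corresponding DTR groups. The part of these markers in the results below was not tested.

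Lfng (ENSMUSG00000029570, GRCm38 chr5:140607320-140615545, plus strand) was the member with the largest response. In control input the libraries held 60.1, 72.7, 80.5 and 84.5 CPM, and in control IP 273, 305, 292 and 243 CPM. In DTR input they held 5.55, 7.60, 7.28 and 8.13 CPM, and in DTR IP 14.1, 18.7, 13.4 and 20.8 CPM. The 4 groups did not overlap at any point, and they fell in the order control IP, control input, DTR IP and DTR input. Lfng was thus higher in IP than in input in both genotypes and lower in the DTR groups in both sample types. The control IP libraries were above control input by a log2 fold change of 1.92 ± 0.17 (SE, adjusted p = 6.8e-08, limma), or 3.77-fold. DTR IP was above DTR input by 1.18 ± 0.17 (adjusted p = 2.3e-05, limma). After damage, Lfng fell 16.9-fold in the IP (log2 fold change -4.08 ± 0.17, adjusted p = 1.2e-11, limma) and 10.2-fold in the input (-3.35 ± 0.17, adjusted p = 9.1e-11, limma). Both declines met the stricter criteria, with a separation of 11.8 in IP and 7.53 in input. The log2 fold change was lower by 0.73 ± 0.24 in IP than in input, which did not pass the test of the interaction after adjustment (unadjusted p = 0.0064, adjusted p = 0.607, limma).

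The stretch upstream of Lfng is shown because the Notch effector Rbpj binds DNA at sites with the core TGGGAA and Lfng was the member that moved most. Of the 10 genes, 9 had an entry in the RefSeq promoter table of build GRCm38.p6, with Dll1 having 2 starts and Mfng not matched. The window ran from 250 to 22 bases before each RefSeq start (229 bases), the end being set by where the annotated Lfng gene begins. In lower case with both matches to TGGGAA, on either strand, in capitals, the stretch at chr5:140607091-140607319 (plus strand) reads:

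Lfng: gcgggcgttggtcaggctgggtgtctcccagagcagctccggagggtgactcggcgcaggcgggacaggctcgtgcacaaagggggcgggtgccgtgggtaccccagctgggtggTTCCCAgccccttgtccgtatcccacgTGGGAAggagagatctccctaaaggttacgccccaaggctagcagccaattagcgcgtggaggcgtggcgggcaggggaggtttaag

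The first match begins 135 bases before the RefSeq start and lies on the minus strand, and the second begins 108 bases before it on the plus strand. The motif CACGTG, which Hes and Hey proteins can bind and which reads the same on both strands, occurred once and shares its last letters with the second match. Of all 32851 promoter windows of this length, 19.98% held TGGGAA on either strand and 5.291% held CACGTG. Neither motif was found in the windows of the other 8 members with an entry, Jag1 included. A match is a description of the letters in this window and not evidence of binding.

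Rfng, a Fringe enzyme expressed in many tissues, behaved differently. Its libraries held 65.4 to 73.7 CPM in control input, 75.7 to 91.1 in control IP, 62.6 to 68.6 in DTR input and 78.2 to 98.3 in DTR IP. The IP groups were above the input groups without overlap, and the control and DTR groups overlapped in both sample types. Rfng rose in IP against input by a log2 fold change of 0.25 ± 0.09 in control (adjusted p = 0.0389, limma) and 0.37 ± 0.09 in DTR (adjusted p = 0.00439, limma). The control call was lost when any of 5 libraries was left out, with an adjusted p of up to 0.117, and with the replicate block plus gene length and GC (adjusted p = 0.283, limma). The difference between DTR and control was 0.04 in IP (95% interval -0.16 to 0.23) and -0.08 in input (-0.28 to 0.12), and neither passed the test (adjusted p = 0.846 and 0.699, limma).

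Mfng was the scarcest Fringe gene in CPM in the control groups. It ranged from 14.1 to 20.3 CPM in control input, from 10.9 to 15.2 in control IP, from 12.1 to 18.2 in DTR input and from 8.23 to 12.4 in DTR IP. The groups overlapped in each of the 4 comparisons. The log2 fold changes lay between -0.45 and -0.41 in all 4 comparisons, and none passed (adjusted p from 0.058 to 0.177, limma). With the replicate number as a block, all 4 passed, with an adjusted p of 0.0057 in control IP against input, 0.0056 in DTR IP against input, 0.0263 for DTR IP against control IP and 0.0333 for DTR input against control input (limma). Without the block, Mfng was also called lower in IP than in input with DESeq2 and median centring in both genotypes (adjusted p from 0.0323 to 0.0379), in control without quantile normalization (0.040) and with only the groups compared (0.0448), and in DTR with edgeR (0.0462). In the blocked fit, 48.8%, 48.2%, 24.5% and 18.8% of all tested genes were called in these comparisons.

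The makeup of Fringe transcripts changed accordingly. Per kb of merged exons, which allows genes of different length to be set side by side, Lfng made up 46.1 ± 2.68% (SD, n = 4) of the summed Fringe CPM per kb in control input and 74.5 ± 1.58% in control IP. In DTR input this share was 8.25 ± 1.18%, and in DTR IP 15.02 ± 3.22%. Rfng held the largest share after damage, at 77.4 ± 2.64% in DTR input and 77.0 ± 3.02% in DTR IP, against 43.8 ± 3.14% and 22.4 ± 1.87% in the corresponding controls. Rfng itself did not pass the test for a change, so the share of Rfng moved with the fall of Lfng in the sum.

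**Figure D1:**
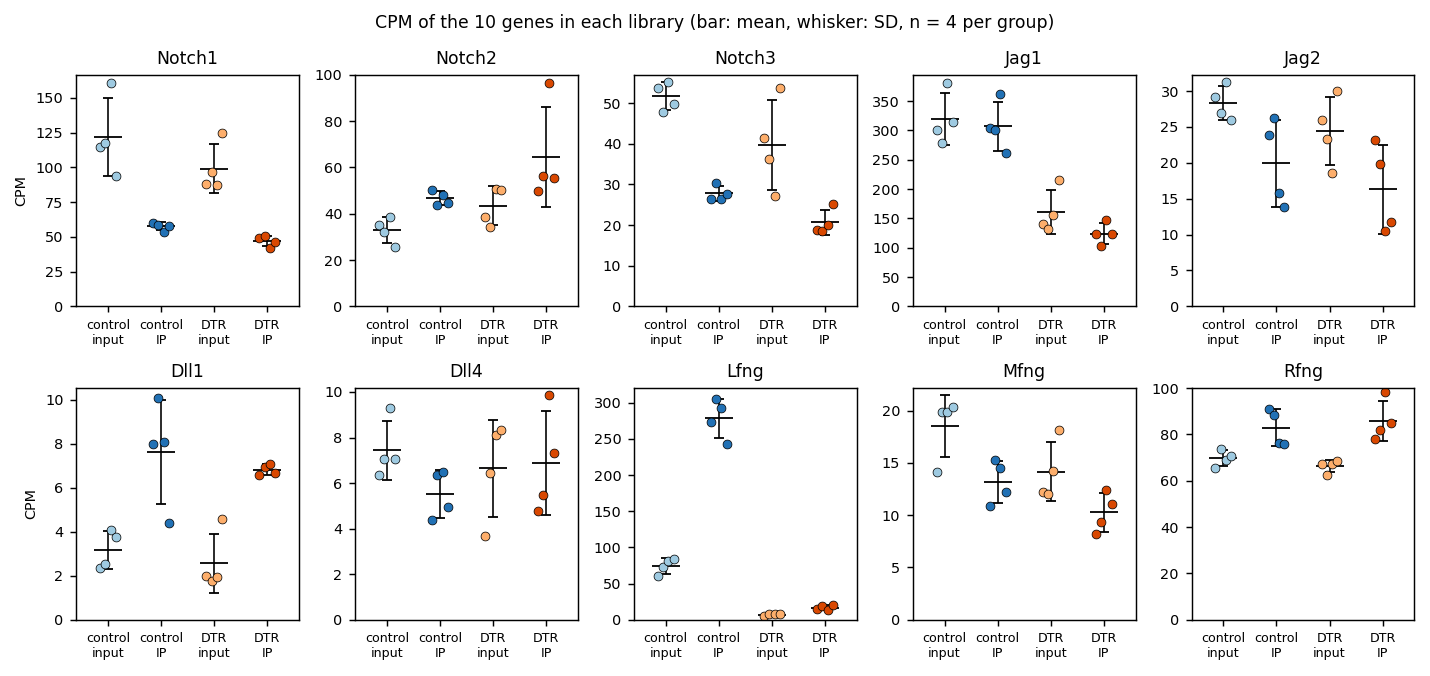
CPM of each of the 10 genes (y axis, linear, own range per panel) in each of the 16 libraries, by group, with points for libraries, bars for means and whiskers for SD. Lfng is highest in control IP (243 to 305 CPM) and lowest in DTR input (5.55 to 8.13 CPM), Jag1 is lower in both DTR groups, and Notch1 and Notch3 are lower in the IP groups than in the input groups of the same genotype.

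Jag1 (ENSMUSG00000027276, GRCm38 chr2:137081456-137116644, minus strand) was the most abundant ligand, and the one that fell after damage. Control input held 301, 278, 381 and 315 CPM and control IP 304, 301, 362 and 262 CPM, ranges that overlapped. DTR input held 141, 132, 156 and 215 CPM and DTR IP 123, 103, 147 and 123 CPM, all below every control library of the same sample type. Jag1 fell 2.49-fold in IP (log2 fold change -1.32 ± 0.15, adjusted p = 5.2e-06, separation 1.78, limma). It fell 1.94-fold in input (-0.95 ± 0.15, adjusted p = 0.000214, separation 1.27, limma), which stayed under the stricter criteria. The interaction of -0.36 ± 0.21 did not pass (adjusted p = 0.999, limma). Unlike Lfng, Jag1 was not higher in IP, with a log2 fold change of 0.02 ± 0.15 in control (adjusted p = 0.932, limma) and -0.34 ± 0.15 in DTR (adjusted p = 0.0826, limma). With the replicate block, the DTR difference passed (adjusted p = 0.0169, limma). It also passed with DESeq2 (adjusted p = 0.0475), median centring (0.0397) and the block plus gene length and GC (0.0276). Without DTR input replicate 2 or DTR IP replicate 3 it passed too (0.0453 and 0.0442, limma). It did not pass in 7 of 11 alternative settings and in 6 of 8 fits with 1 library left out.

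Dll1, a ligand of nascent hair cells, was scarce but higher in IP. Control input held 2.34, 2.53, 4.06 and 3.78 CPM and control IP 7.98, 10.1, 8.08 and 4.41 CPM. DTR input held 2.01, 1.74, 1.94 and 4.57 CPM, and DTR IP 6.59, 6.94, 7.09 and 6.67 CPM. In both genotypes every IP library was above every input library. The log2 fold change was 1.18 ± 0.26 in control (adjusted p = 0.00116, limma) and 1.39 ± 0.26 in DTR (adjusted p = 0.000303, limma). Of the 10 hair cell markers, 9 and 8 were lower in the same comparisons. Atoh1 was higher in both, by 0.86 in control (adjusted p = 0.00832, limma) and 1.09 in DTR (adjusted p = 0.00168, limma). After damage, Dll1 differed by -0.19 (95% interval -0.73 to 0.34) in IP and by -0.40 (-0.94 to 0.13) in input, and neither passed (adjusted p = 0.677 and 0.379, limma). One library, DTR input replicate 4, lay far above the other 3 of its group, and without it Dll1 was called lower in DTR input (log2 fold change -0.69, adjusted p = 0.0487, limma).

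Jag2, another hair cell ligand, ranged from 25.9 to 31.2 CPM in control input and from 18.6 to 29.97 in DTR input. In both IP groups it was split by replicate number, with replicates 1 and 2 at 23.9 and 26.2 CPM in control and 23.1 and 19.8 in DTR, and replicates 3 and 4 at 15.8 and 13.8 in control and 10.5 and 11.7 in DTR. Within the DTR mice, Jag2 was lower in the IP, with a log2 fold change of -0.66 ± 0.21 (adjusted p = 0.0195, limma), although the groups overlapped, and the call was lost with edgeR (adjusted p = 0.0566) and without DTR input replicate 4, DTR IP replicate 3 or DTR IP replicate 4 (adjusted p from 0.0602 to 0.081). In control the value of -0.54 ± 0.21 just missed the threshold (adjusted p = 0.0502, limma) and passed with the replicate block (adjusted p = 0.0169). The difference between DTR and control was -0.35 in IP (95% interval -0.80 to 0.09) and -0.24 in input (-0.68 to 0.21). Neither passed (adjusted p = 0.295 and 0.575, limma), although that in IP did with the replicate block plus gene length and GC (adjusted p = 0.0157).

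Dll4, best known as the ligand of endothelial tip cells, stayed between 3.69 and 9.87 CPM in all 16 libraries, and its groups overlapped in all 4 comparisons. The log2 fold changes were -0.29 and 0.09 in IP against input (control and DTR) and 0.14 and -0.24 for DTR against control (IP and input), with adjusted p from 0.424 to 0.828 (limma). Their 95% intervals spanned about -0.86 to 0.70, so that a change of 1.5-fold could not be told from none. Over the same libraries, 7 of 8 endothelial markers were lower in control IP than in control input and 8 of 8 in DTR IP than in DTR input.

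Among the receptors, Notch1 and Notch3 were lower in the IP while Notch2 was higher. Notch1, which acts in lateral inhibition in the sensory epithelium, held 115, 117, 161 and 93.7 CPM in control input and 60.0, 58.8, 53.6 and 58.0 CPM in control IP. It held 87.7, 96.7, 87.2 and 124 CPM in DTR input and 49.0, 50.5, 41.9 and 46.6 CPM in DTR IP. No IP library reached the input libraries of its genotype, and the log2 fold change was -1.02 ± 0.14 in control (adjusted p = 1.4e-05, limma) and -1.08 ± 0.14 in DTR (adjusted p = 9.2e-06, limma). Every DTR IP library was also below every control IP library, by -0.33 (95% interval -0.62 to -0.03), which did not pass after adjustment (adjusted p = 0.132, limma) but passed with the replicate block plus gene length and GC (adjusted p = 0.00523). In input the difference was -0.27 (-0.56 to 0.03), with overlapping groups.

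Notch3, a receptor of pericytes and smooth muscle in blood vessels and of several other cell types, held 53.8, 47.7, 55.2 and 49.9 CPM in control input and 26.5, 30.5, 26.5 and 27.8 CPM in control IP. DTR input held 41.5, 36.3, 27.1 and 53.8 CPM, the widest spread of the 4 groups, and DTR IP 18.8, 18.7, 19.9 and 25.2 CPM. IP was below input by a log2 fold change of -0.89 ± 0.16 in control (adjusted p = 0.000156, limma) and -0.94 ± 0.16 in DTR (adjusted p = 0.000107, limma). Pericyte markers were lower in the same comparisons, 6 of 7 in control and 5 of 7 in DTR, with summed levels of 412 to 473 CPM in control input and 147 to 196 in control IP. Most hair cell, endothelial, Schwann cell and macrophage markers were lower in these comparisons as well. In DTR IP against control IP, 0 of 7 pericyte markers were lower and 1 was higher. After damage Notch3 fell in IP by 0.46 on the log2 scale, at an adjusted p of 0.0498 (limma), without overlap of the groups. This call was at the edge of the threshold: it was lost when any of 7 of the 8 libraries was left out, the exception being DTR IP replicate 4, with adjusted p reaching 0.133. In input the value was -0.41 (adjusted p = 0.09998, limma), and it passed without DTR input replicate 4 (-0.56, adjusted p = 0.0141, limma) and with the replicate block plus gene length and GC (-0.37, adjusted p = 0.0154, limma).

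Notch2, a receptor widely expressed in epithelia, held 35.1, 32.2, 38.8 and 25.5 CPM in control input and 50.3, 43.8, 48.2 and 44.6 CPM in control IP. DTR input held 38.6, 34.4, 50.8 and 50.3 CPM and DTR IP 49.8, 56.2, 96.6 and 55.5 CPM. IP was above input by a log2 fold change of 0.49 ± 0.19 in control, without overlap, and 0.50 ± 0.19 in DTR, with overlap (adjusted p = 0.046 in each, limma). Both calls depended on the libraries used. The control call was lost without any of 6 libraries (adjusted p up to 0.151) and the DTR call without any of 4, among them DTR IP replicate 3, whose removal lowered the value to 0.28 (adjusted p = 0.193). DTR exceeded control by 0.39 in IP (95% interval -0.01 to 0.78) and 0.38 in input (-0.02 to 0.78), and neither difference passed (adjusted p = 0.194 and 0.237, limma).

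The ratio of Notch2 to Notch1 differed between the groups. Notch2 stood at 0.241 to 0.305 times the CPM of Notch1 in control input, 0.356 to 0.582 times in DTR input, 0.745 to 0.898 times in control IP and 1.02 to 2.30 times in DTR IP. These 4 ranges did not overlap. The ratio was picked out after the values were seen and is given as a description.

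**Figure D2:**
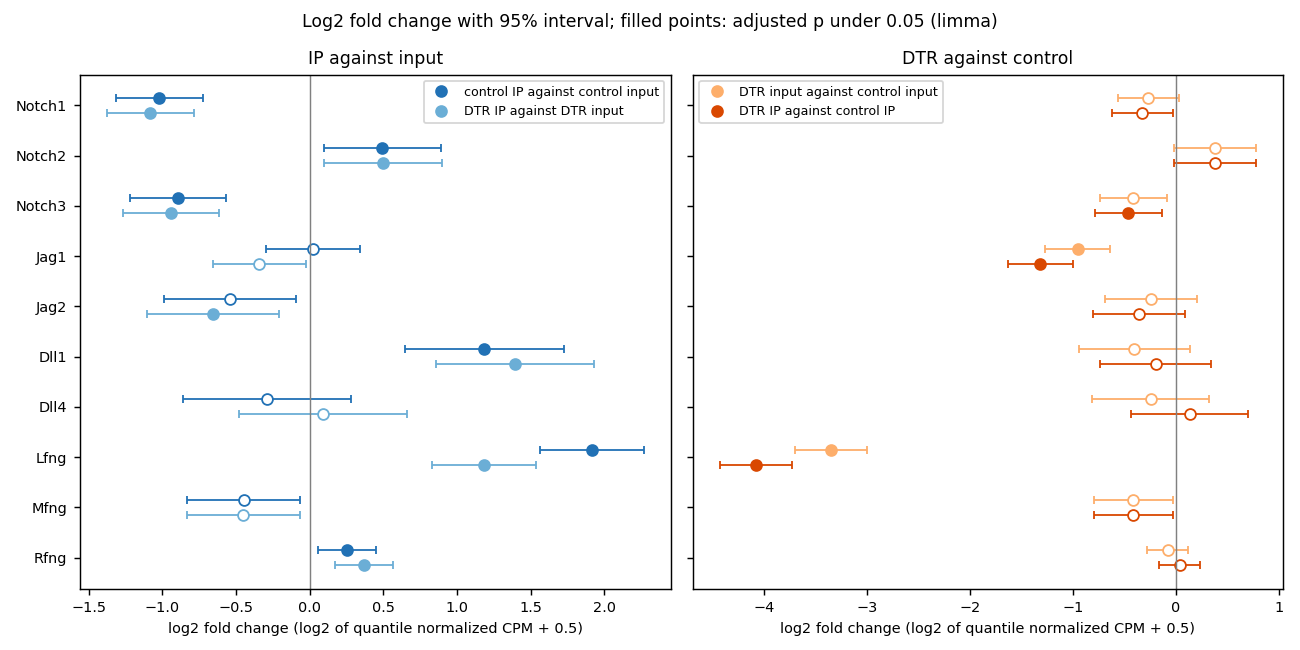
Log2 fold change (x axis, on log2 of quantile normalized CPM + 0.5) of each gene with its 95% interval, for IP against input (left) and DTR against control (right), with filled points where the adjusted p was under 0.05. Notch1 and Notch3 lie left of 0 and Lfng, Dll1, Notch2 and Rfng right of 0 in IP against input, while in DTR against control only Lfng, Jag1 and, in IP, Notch3 are filled.

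Counted together, 4 of the 10 genes were higher (Notch2, Dll1, Lfng, Rfng) and 2 were lower (Notch1, Notch3) in control IP than in control input, where 19.3% of all tested genes were called higher and 20.7% lower. In DTR IP against DTR input the same 4 genes were higher and 3 were lower (Notch1, Notch3, Jag2), beside 18.6% and 20.5% of all tested genes. In DTR IP against control IP, 0 were higher and 3 were lower (Lfng, Jag1, Notch3), with 8.44% of all tested genes higher and 7.30% lower. At an unadjusted p under 0.05 it was 5 of 10, beside 28.4% of all tested genes. There edgeR and DESeq2 called 3 each, beside 15.8% and 18.3% of all tested genes. The stricter criteria were met by 2 (Lfng, Jag1), beside 1.34% of all tested genes that fell by them. In DTR input against control input, 0 were higher and 2 were lower (Lfng, Jag1), with 7.17% of tested genes higher and 5.21% lower, and 1 met the stricter criteria (Lfng), beside 1.00% of tested genes. There, 4 of 10 had an unadjusted p under 0.05, beside 23.2% of all tested genes. In the same comparison edgeR and DESeq2 called 2 each, beside 12.2% and 14.3% of all tested genes. The interaction was called for 0 of the 10 by limma, edgeR and DESeq2, beside 0.0118%, 0% and 0.288% of all tested genes. At an unadjusted p under 0.05 it was 1 (Lfng) in limma, beside 5.12% of all tested genes. Median log2 fold changes of the 10 genes were -0.14 and -0.13 in IP against input (control and DTR), -0.34 for DTR IP against control IP and -0.33 for DTR input against control input, beside medians between -0.03 and 0.00 over all tested genes. The comparisons of IP against input and those of DTR against control use the same libraries, so their values are not independent of each other.

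The order of levels per kb of merged exons turned with the sample type and with damage. In control input Jag1 led with 54.7 ± 7.59 CPM per kb (SD, n = 4), followed by Lfng (29.7 ± 4.29) and Rfng (28.0 ± 1.39), whose ranges overlapped. In control IP Lfng led with 111 ± 10.8 CPM per kb, ahead of Jag1 (52.7 ± 7.11) and Rfng (33.3 ± 3.26), with no overlap between these neighbours. In DTR input Jag1 (27.7 ± 6.39) and Rfng (26.7 ± 1.05) overlapped at the top and Lfng was in place 8 of 10, at 2.85 ± 0.45 CPM per kb. In DTR IP Rfng led with 34.4 ± 3.53 CPM per kb, ahead of Jag1 (21.3 ± 3.12) without overlap, and Lfng (6.69 ± 1.43) overlapped Notch2 (5.98 ± 2.00).

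The receptors lay below Jag1 and Rfng in every group, between 2.55 and 8.55 CPM per kb as group means, and Dll1 and Dll4 took the last places in all 4 groups, at 0.608 to 1.93 CPM per kb. Notch1 and Notch2 overlapped in control IP at 4.05 ± 0.19 and 4.33 ± 0.28 CPM per kb of merged exons. By the longest transcript, which is shorter than the merged exons for Notch1, Notch1 stood above Notch2 there, at 6.07 against 4.45 CPM per kb. Several members share bases with other annotated genes: Notch1, Dll1 and Dll4 with transcripts on the opposite strand, Notch3 with the antisense gene Gm17276, Notch2 with Gm42819 and Gm42820, and Jag2 and Notch1 with a microRNA gene. The overlap was taken over whole genes with their introns, and overlap of exons was not looked at. The library kit does not mark strand, so reads from any exons shared with an opposite-strand partner could not be told apart. Jag1, Lfng, Mfng and Rfng have no such overlap.

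**Figure D3:**
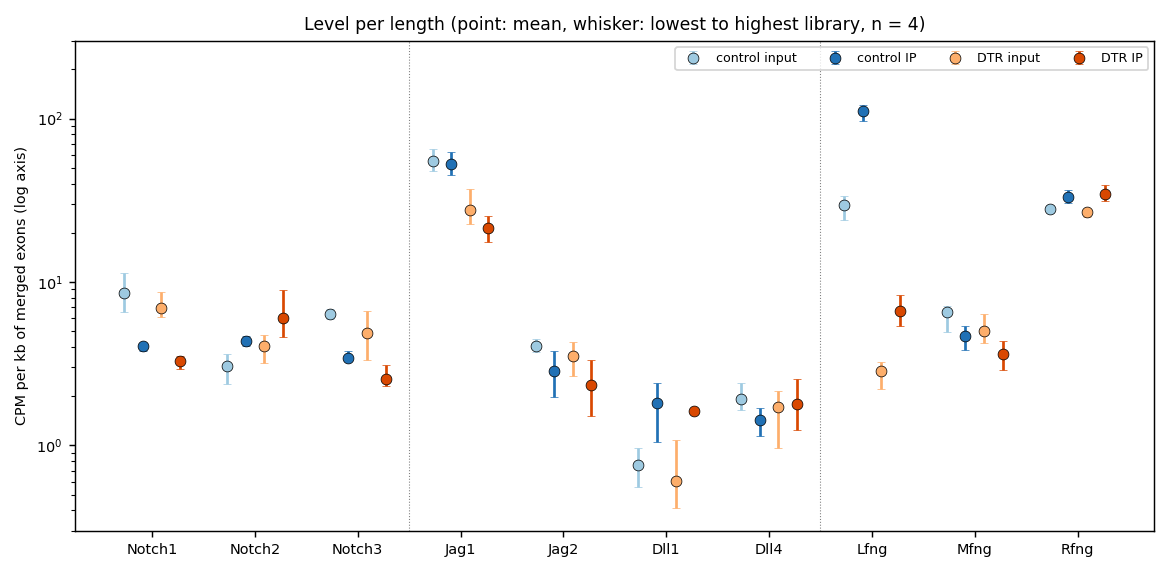
Level of each gene in CPM per kb of merged exons (y axis, log scale) in the 4 groups, with points for means and whiskers from the lowest to the highest library (n = 4). Lfng spans the widest range, from 2.85 in DTR input to 111 in control IP, while Rfng stays between 26.7 and 34.4 in all groups.

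Lfng and Jag1 were also set against Lgr5 within each library, a comparison chosen after the values were seen. The CPM of Lfng was 6.95 to 8.23 times that of Lgr5 in control IP and 1.56 to 1.97 times in DTR IP, so that Lfng fell 4.31-fold more than Lgr5. In input it was 0.945 to 1.31 times Lgr5 in control and 0.310 to 0.680 times in DTR, a 2.58-fold larger fall. Jag1 moved the other way relative to Lgr5, from 7.51 to 10.2 times in control IP to 10.8 to 17.1 times in DTR IP, and from 4.72 to 5.77 times in control input to 7.88 to 11.8 times in DTR input, a rise of the ratio by 1.58-fold and 2.02-fold. In each of the 4 comparisons the groups did not overlap. As 1 copy of Lgr5 is replaced in the DTR mice, the Lgr5 level in these ratios may differ by genotype as well as by loss of cells. The size of that part was not tested, so the ratios do not give a change per Lgr5 cell. As the ratios were picked for this, they are given as a description, with no test. Lgr5 was the only supporting cell marker used in them. In input, Fgfr3 and Prox1 fell further than Lgr5, with log2 fold changes of -3.32 and -2.27, beside -3.35 for Lfng. In IP only Fgfr3 did, at -2.52, beside -4.08 for Lfng. The other supporting cell markers fell less than Lgr5 in both sample types or did not fall. Whether Lfng fell beyond these markers as a set was not tested.

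**Figure D4:**
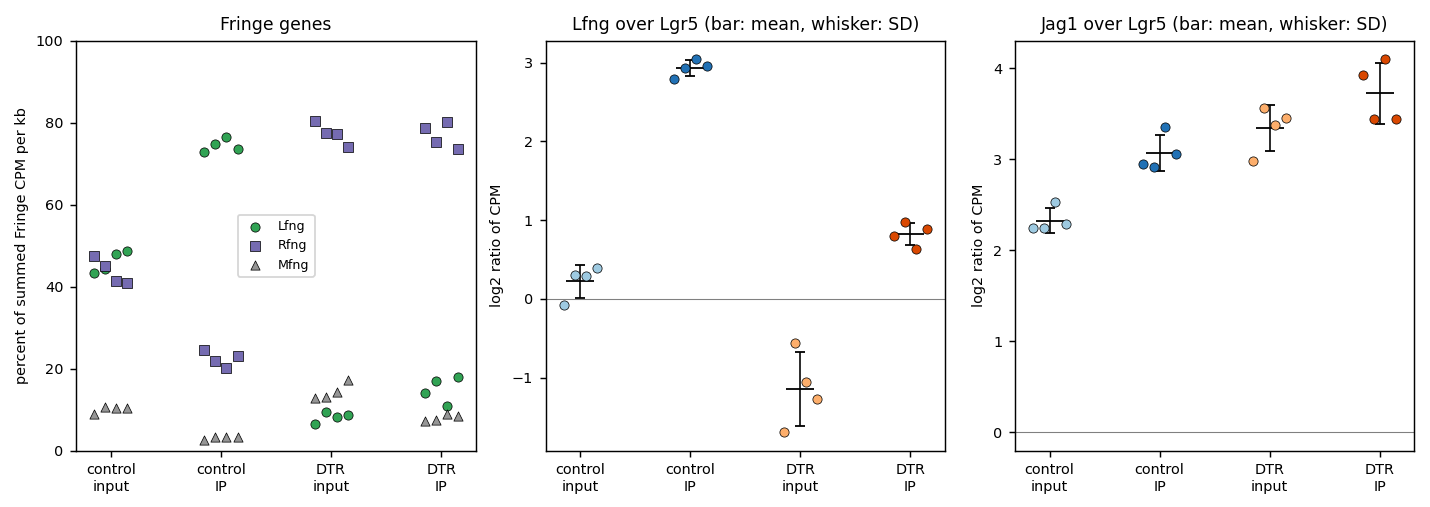
Left, percent of the summed Fringe CPM per kb held by Lfng, Rfng and Mfng in each library. Middle and right, log2 ratio of the CPM of Lfng and of Jag1 to that of Lgr5 in each library, with bars for means and whiskers for SD (n = 4). Lfng goes from the largest Fringe share in control IP (74.5%) to 15.02% in DTR IP, and the ratio to Lgr5 falls for Lfng and rises for Jag1 after damage in IP and in input.

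The 3 tested genes whose log2 levels were most like those of the leading member of each class, by Pearson's r over the 16 libraries, were Plet1 (r = 0.989), Igfbp3 (0.988) and Gata3 (0.974) for Lfng, Mansc4 (0.947), Fhad1 (0.946) and Fgf3 (0.942) for Jag1, and Snrnp200 (0.976), Ptprm (0.969) and Fasn (0.969) for Notch1. The 16 points share 4 groups and, within a homogenate, the same animals, so these values describe the pattern over groups.

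The rest of the pathway was read from a list of 51 genes, of which 50 were tested and 1, Dlk1, was listed at 0 in every library. In control IP against control input 16 were higher and 13 lower, and in DTR IP against DTR input 13 and 13, or 58% and 52% of the 50 called, beside 39.9% and 39.2% of all tested genes. Among the 12 genes of receptor processing, 1 rose and 3 fell in each of these: Psen2, a catalytic subunit of gamma-secretase that frees the Notch intracellular domain, rose from 17.1 ± 0.58 to 56.7 ± 2.45 CPM in control (log2 fold change 1.69, adjusted p = 4.6e-09, limma) and by 1.63 in DTR (adjusted p = 8.6e-09). Of the 6 genes for ligand endocytosis, 1 rose and 1 fell in control and 1 rose in DTR. The ubiquitin ligase Neurl1b rose in IP by 1.32 in control and 1.45 in DTR (adjusted p = 3.4e-05 and 1.5e-05, limma), and Mib2, another ubiquitin ligase for Notch ligands, was lower in control IP (log2 fold change -0.44, adjusted p = 0.0354, limma).

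Of the 4 other receptors and ligands tested, 3 were lower in IP in each genotype (Notch4, Dlk2 and Dner), and Dll3 was not called, with log2 fold changes of -0.55 in control and 0.31 in DTR. Dner, a Notch ligand of neurons, had a log2 fold change of -1.74 in control and -1.64 in DTR (adjusted p = 6.6e-05 and 0.000136, limma), and Notch4, an endothelial receptor, of -0.84 and -0.71. In the nuclear complex 3 of 7 rose and 3 of 7 fell in each genotype. Rbpj was lower in IP, with log2 fold changes of -0.46 in control and -0.68 in DTR (adjusted p = 0.00716 and 0.000306, limma), whereas the coactivators Maml1 and Maml2 and the acetyltransferase Kat2b rose. Among the 6 corepressors 3 rose in each genotype (Spen, Ncor1, Cir1), with Spen at 0.97 in control and 1.25 in DTR. Of the 9 negative regulators, 4 rose and 3 fell in control and 2 rose and 3 fell in DTR, with the Notch-degrading ubiquitin ligase subunit Fbxw7 at 1.16 in control (adjusted p = 5.2e-05, limma) and 0.98 in DTR (adjusted p = 0.000321, limma). Of the 6 target genes, 4 rose in control, and 3 rose and 1 fell in DTR. Nrarp rose by 1.60 in control (adjusted p = 8.4e-05, limma) and 1.27 in DTR (adjusted p = 0.000806, limma). Hes1 rose by 0.48 in each (adjusted p = 0.00568 and 0.00577, limma).

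Of these 50 genes, 3 were higher, 6 lower and 41 not called in DTR IP against control IP, a share of 18% called beside 15.7% of all tested genes. In DTR input against control input 3 were higher, 4 lower and 43 not called, a share of 14% beside 12.4%. Most of the lower calls were target genes. Hes5, a Notch effector of supporting cells, went from 8.16 to 14.99 CPM in control IP to 0.570 to 1.87 CPM in DTR IP (log2 fold change -3.13, adjusted p = 6.4e-07, limma). Hey1, Hey2 and Heyl were also lower in DTR IP, and Hes5, Hey1 and Hey2 in DTR input. Hes1 and Nrarp, further targets, were not called in either comparison, with a log2 fold change of -0.06 and -0.61 in IP (adjusted p = 0.803 and 0.129, limma). The other lower calls in IP were the ligand endocytosis gene Neurl1a (-0.49, adjusted p = 0.0279) and the Notch inhibitor Numb (-0.45, adjusted p = 0.0232), and in input the sheddase Adam17 (-0.34, adjusted p = 0.0412).

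Higher in DTR IP were Dll3 (0.92, adjusted p = 0.0298, from 0.584 ± 0.30 to 1.82 ± 0.63 CPM), a ligand-like protein that does not activate Notch in neighbouring cells, Itch (0.49, adjusted p = 0.00263), a ubiquitin ligase for Notch, and the coactivator Ep300 (0.54, adjusted p = 0.00816). In DTR input the higher genes were Ep300 (0.56, adjusted p = 0.00727), Snw1 (0.30, adjusted p = 0.0424) and the gamma-secretase subunit Aph1c (0.43, adjusted p = 0.0255, all limma). Rbpj differed by -0.02 in IP and 0.21 in input after damage and did not pass (adjusted p = 0.945 and 0.354, limma).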

How the data were processed

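Gene values were deposited as CPM (read counts scaled to a common library total) per gene and library by the authors, who according to their methods aligned SMART-Seq v4 reads with HISAT2 and counted them with HTSeq. The submitters' processing notes name TopHat and the build GRCm38. The annotation release and the strand setting are not given in the sources used here. Low values were whole multiples of 1 read in 100% of cases (tolerance 0.05 reads), so read counts were recovered. Replicates are separate pools of cochleae, and the fourth of each group carries another number in the file columns.

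Genes with at least 0.5 CPM in all 4 libraries of at least 1 group were tested (16994). CPM were quantile normalized, 0.5 was added and log2 was taken. Group means were fitted to all 16 libraries with limma 3.58.1 in R 4.3.3 (trend), without a block for the replicate number. The study itself tested genes with DESeq2, which is an alternative here. Its quantile normalization, fold change limit and separation were kept, but its floor at the 10th percentile was applied to the separation only. Before its clustering, the study also corrected for an effect of gene length in the IP samples, which the main fit here does not do. The procedure was tried on simulated libraries drawn independently, with genes changed only in DTR IP. This covers neither the pairing of libraries nor the many genes that differ between IP and input. Alternatives were no quantile normalization, median centring, pseudocounts of 0.1 and 1, no filter, a filter of 2 CPM, only the groups compared, the replicate block with and without gene length and GC, edgeR 4.0.16, DESeq2 1.42.0 and leaving out each library.

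Same-numbered libraries deviated together from their group means, with r from 0.29 to 0.56 in every pair of all 4 comparisons. The numbers were therefore taken as pairs in the replicate block. Differently numbered libraries averaged near -0.12, which is no separate support, because deviations from a group mean cancel out within the group. Control input replicate 3 with control IP replicate 4 reached r = 0.29, like the lowest same-numbered pair. The members and lists were chosen with earlier results of these data known. Named were the 10 members, the listed pathway genes called with a log2 fold change of at least 1 in any comparison, Rbpj, the target genes, the 3 genes most correlated with the member of highest CPM in each class, Lgr5 and Slc1a3. Other pathway genes named in the report and all cell markers named singly were picked after their values were seen. Gene lengths are from the Ensembl annotation of GRCm38 and promoters from RefSeq. P-values of the main fit reflect the spread between libraries of a group, with the input and IP libraries of a pool treated as independent. Values of 1 listed pathway gene are not reported here, though the counts over the list include it.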

Additional observations from a re-analysis of the deposited data

Results flagged for a closer look

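Of the 40 sets of 4 libraries (10 genes in 4 groups), 3 held a library whose gap to its nearest neighbour took up more of the group's range than Dixon's 95% limit for 4 values allows. Chance flags about 5% of such sets. Dll1 in DTR input replicate 4 stood at 4.57 CPM, with the others at 1.74, 1.94 and 2.01 CPM. Mfng in control input replicate 1 stood at 14.1 CPM, with the others at 19.9, 19.9 and 20.3 CPM, and without it Mfng was called lower in control IP than in control input (log2 fold change -0.58, adjusted p = 0.024, limma). Notch2 in DTR IP replicate 3 stood at 96.6 CPM, with the others at 49.8, 55.5 and 56.2 CPM. For 0 of the 10 genes did the 4 pairs of pools move in opposite directions in IP and in input.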

How the results depend on the processing

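The 10 members and the interaction of Lfng, Jag1 and Dll4 were recomputed in 838 combinations of gene, comparison and setting. Direction and side of the threshold held in 755, the call changed in 70, and the direction in 13, none of them called. The falls of Lfng and Jag1 and the IP against input calls of Notch1, Notch3, Dll1 and Lfng held in every setting run.

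Jag1 in control IP against control input went to -0.055 without quantile normalization, -0.062 with median centring, -0.020 with DESeq2 and ranged from -0.058 to 0.11 when 1 library was left out, negative without control input replicate 1, control input replicate 2 or control IP replicate 3. Rfng in DTR IP against control IP went to -0.023 with edgeR, -0.021 with DESeq2 and ranged from -0.032 (without DTR IP replicate 3) to 0.096. Dll4 with 1 library left out ranged from -0.38 to 0.034 in DTR against control input, from -0.055 to 0.32 in DTR against control IP and from -0.19 to 0.27 in DTR IP against input, with the turns coming without DTR input replicate 1 or DTR IP replicate 3. The cause was not tested.

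The main fit had no block, and the replicate block took the numbers as pairs. With the replicate block, 8, 9, 4, 3 and 0 members were called (control IP against input, DTR IP against input, DTR against control IP, DTR against control input, interaction). The report gives the calls that changed, and no other member call did. With gene length and GC in addition, 6 members were called in DTR against control IP (Notch1, Notch3, Jag1, Jag2, Lfng, Mfng) and 4 in input (Notch3, Jag1, Lfng, Mfng). Over all tested genes, calls rose with the block from 2674 to 4172 in IP and from 2104 to 3202 in input, and to 4624 and 3644 with length and GC. Interaction calls were 2 in limma, 40 with the block, 70 with length and GC, 49 with DESeq2 and 0 with edgeR. Leaving out 1 library gave 4 to 6, 5 to 7, 2 to 3, 2 to 4 and 0 to 0 members called, and 1 to 2 past the stricter criteria in input, where the highest values came without DTR input replicate 4. Notch3 in DTR against control IP was also lost without a filter (adjusted p = 0.0895), without quantile normalization (0.0767), with only the groups compared (0.067) and with a pseudocount of 1 (0.052). Notch2 was lost without a filter (0.107 in control and 0.108 in DTR) and in DTR with only the groups compared (0.0848). Members near 5 CPM (Dll1, Dll4) rest on 57 to 385 reads per library.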
